A study of Mus musculus with 6 samples.

Results

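Integrin gene expression was examined in mouse macrophages of the RAW 264.7 line given bisphenol AP (BPAP) or the solvent DMSO. The set holds the leukocyte integrin genes Itgb2, Itgam, Itgal and Itgax and the matrix and vascular ligand integrin genes Itga4, Itgb1, Itga5, Itga6, Itgb5 and Itgav. Its 10 members were chosen by gene name from the deposited expression table, where they occupy 11 of 34745 rows, because 2 overlapping rows carry the name Itgam. BPAP is a bisphenol with the same basic plan as bisphenol A, and the series asks how it changes macrophages in the setting of bleomycin-induced lung fibrosis. Libraries of BPAP-treated cells (3) were set against libraries of DMSO-treated cells (3), which the titles call controls. The libraries share the cell line, a single transformed line grown in DMEM with fetal bovine serum, and no bleomycin is named in their labels. The sources used here give neither the dose of BPAP nor the exposure time. Since no label states that replicates are separate cultures, p-values cover the spread among these libraries alone, and that spread may be technical.

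Integrins are cell surface receptors made of 1 alpha and 1 beta chain, and neither chain reaches the surface of a cell without a partner. In leukocytes the beta 2 chain (CD18, from Itgb2) pairs with alpha M (CD11b), alpha L (CD11a) or alpha X (CD11c) to bind ICAMs, complement fragments and fibrinogen, which lets macrophages adhere, migrate and take up opsonised particles. The beta 1 chain pairs with alpha 4, alpha 5 or alpha 6 to bind VCAM-1, fibronectin or laminin, while alpha v with beta 5 binds vitronectin and other proteins with an RGD motif and can release latent TGF-beta.

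In BPAP-treated macrophages Itgb2 fell to 82.5 ± 11.3 CPM (counts relative to library size), against 208 ± 13.7 CPM in DMSO-treated cells (SD, n = 3 each). The alpha chain gene Itgax was lower by a smaller factor, a call on few reads that most fits without a single library lost. Neither Itgam row passed the test alone. With both rows summed, a step chosen after the values were seen, Itgam was lower (log2 fold change -0.34, adjusted p = 0.0161, edgeR). The sum was not refitted with single libraries left out. Itgb5 rose to 90.9 ± 7.70 CPM in BPAP, against 59.6 ± 1.01 CPM in DMSO. The genes of the beta 1 chain and of its partners alpha 5 and alpha 6 differed by less than the spread between libraries. Itga4, the most highly counted member, and Itgav had lower means in BPAP that did not pass the test. CPM values here are counts scaled by library total and TMM factor. A gene passed when its p in the quasi-likelihood test of edgeR, adjusted by Benjamini-Hochberg over every tested gene, was under 0.05.

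Of the 11 rows 1 rose and 2 fell, where 31.7% of all 11711 genes tested passed, 16.2% higher and 15.5% lower. All 11 rows were above the filter on low counts. The groups were separate in 4 rows, 1 higher and 3 lower in BPAP, where 49.0% of all genes tested were separate, 25.2% higher and 23.8% lower. The median log2 fold change of the 11 rows was -0.08, against 0.02 for all genes tested. The members thus passed no more often than genes at large, and they are described one by one.

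**Figure D1:**
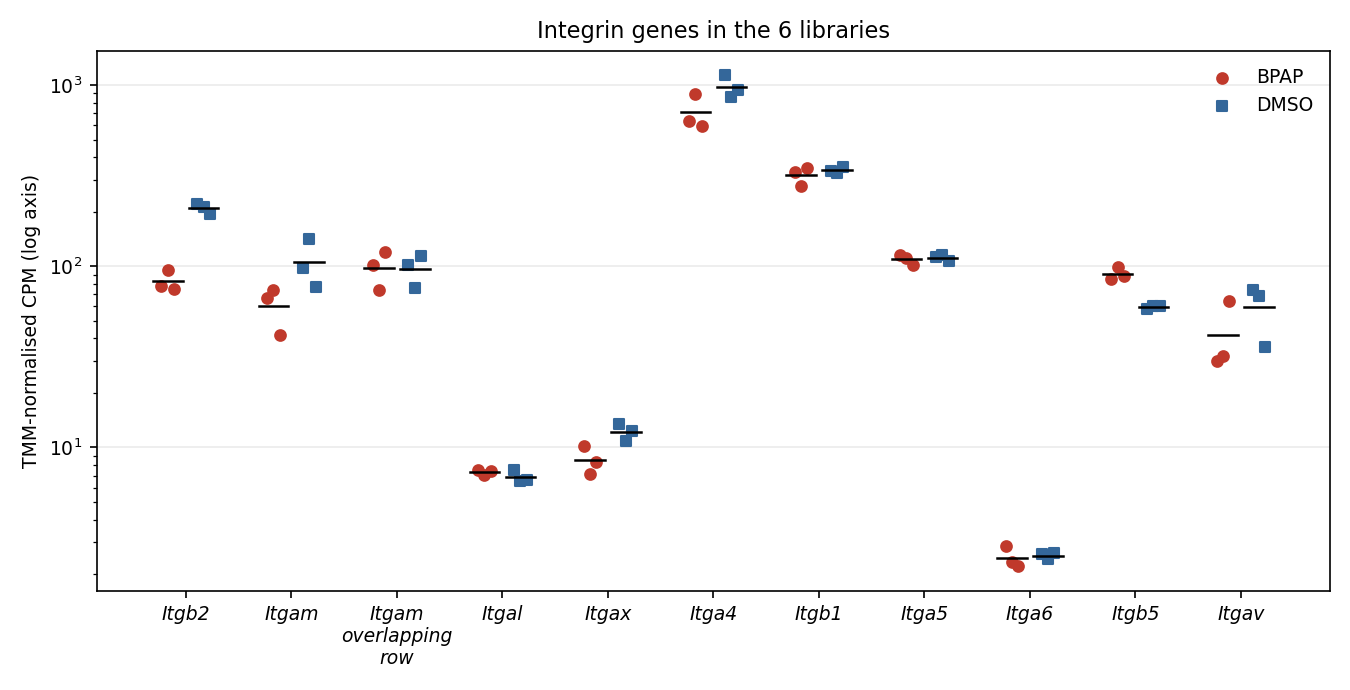
TMM-normalised CPM on a log axis for each integrin row, with 1 point per library (circles BPAP, squares DMSO) and a line at the mean of each group. Itgb2 lies between 74.6 and 95.5 CPM in BPAP and between 193 and 220 CPM in DMSO, Itgb5 lies higher in BPAP, and for Itgav 1 library of each group lies beside the other group.

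Library totals were 11084705 to 13806559 counts. The 10 macrophage markers, which include the member Itgam, summed to 4607 to 5047 CPM in BPAP and 3874 to 4446 CPM in DMSO. The largest were Lyz2 (2321 CPM in BPAP, 1809 CPM in DMSO) and Cd68 (1553 and 1440 CPM). Mertk had 0 counts and Mrc1 had 3 to 14 counts in a library. Of the 8 tested, 5 rose, among them Cd14 (log2 fold change 1.3) and Fcgr1 (1.23), and Csf1r fell (-0.41); their part in the integrin values was not tested. Marker lists of T cells, B cells, neutrophils, epithelial cells, endothelial cells and fibroblasts summed to at most 1.06 CPM in any library. Dendritic cell markers summed to at most 1.80 CPM. Platelet or megakaryocyte markers, which include the integrin genes Itga2b and Itgb3, summed to at most 2.36 CPM.

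Itgb2 is the gene of the beta 2 chain shared by the alpha M, alpha L and alpha X integrins (chromosome 10, 77530252 to 77565708, GRCm38, plus strand). It had 77.6, 95.5 and 74.6 CPM in the BPAP libraries, against 220, 212 and 193 CPM in the DMSO libraries. The highest BPAP library stayed below the lowest DMSO library. It was 2.53-fold lower in BPAP (log2 fold change -1.34, SE 0.11, adjusted p = 0.000176, edgeR), and 71 of 11711 genes tested had a log2 fold change at least as low. The log2 fold change stayed between -1.45 and -1.27 when any single library was left out. In these bulk samples fewer cells with the transcript and less transcript per cell cannot be told apart.

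Itgam, the gene of the alpha M chain (CD11b) that makes the complement receptor CR3 with beta 2, is held by 2 rows on the plus strand of chromosome 7. The first spans 128062640 to 128118491 and the second, named Gm49368 in the GENCODE M21 annotation, spans 128062683 to 128128160. They share 3450 bases of exon, which is 68.7% of the exon bases of the first row, so the division of reads between them is uncertain. The first row had 66.5, 74.1 and 41.7 CPM in BPAP, against 97.6, 141 and 77.1 CPM in DMSO. The groups did not overlap, yet the row did not pass (log2 fold change -0.79, SE 0.29, adjusted p = 0.0889, edgeR). It did pass with DESeq2 (adjusted p = 0.00345), with limma-trend on FPKM (0.0480) and with replicate number as a block in edgeR (0.00106). It also passed without DMSO 3 (-0.97, adjusted p = 0.0475), and without DMSO 2 the log2 fold change was -0.52 (0.160). The second row had 101, 73.7 and 120 CPM in BPAP, against 102, 75.7 and 113 CPM in DMSO, which overlap (log2 fold change 0.02, adjusted p = 0.944, edgeR). Within each group a high value of one row went with a low value of the other, and the first row held 25.7% to 50.1% of the joint counts in BPAP and 40.5% to 65.0% in DMSO. For each row, the replicate numbers ranked in the same order in BPAP as in DMSO.

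**Figure D2:**
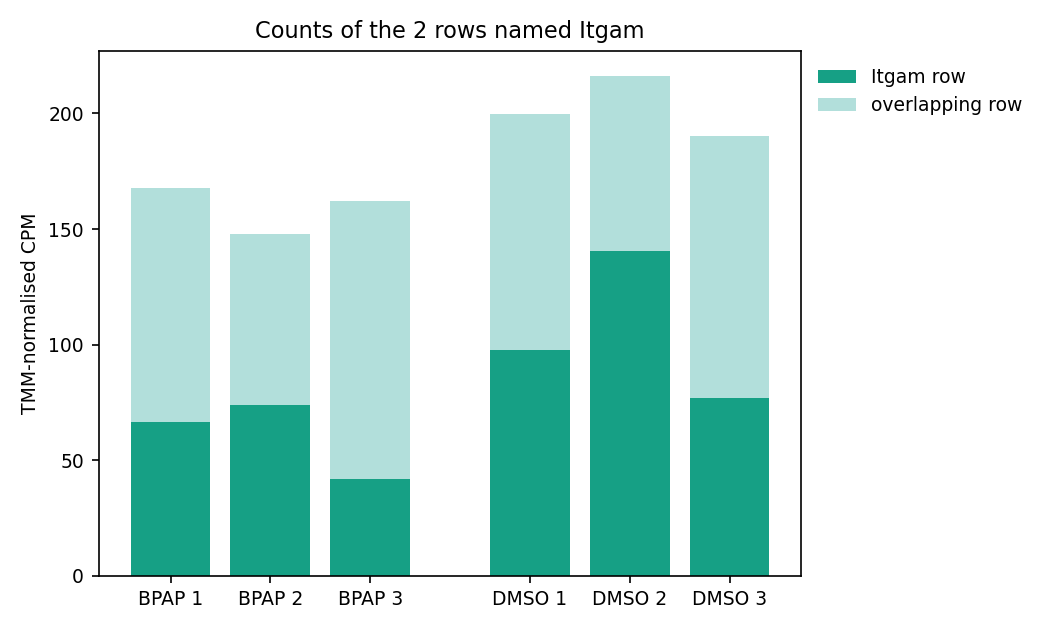
TMM-normalised CPM of the 2 overlapping rows named Itgam, stacked for each of the 6 libraries. The stacked bars reach 148 to 168 CPM in BPAP and 190 to 216 CPM in DMSO, while the division between the rows varies within each group.

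With both rows summed, a step chosen after the values were seen, Itgam had 168, 148 and 162 CPM in BPAP, against 200, 216 and 190 CPM in DMSO. The sums did not overlap, and the joint gene was lower in BPAP by 0.34 on the log2 scale (log2 fold change -0.34, SE 0.09, adjusted p = 0.0161, edgeR). The spread within groups was smaller for the sum than for either row, at 159 ± 10.3 CPM in BPAP and 202 ± 13.2 CPM in DMSO (SD, n = 3 each). Besides this fit, the sum was tested only with the trends on exon length and GC content removed. No library was left out and no other method was used for it.

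Itgax, the gene of the alpha X chain (CD11c) found on macrophages and dendritic cells, starts 1386 bases beyond the end of the second Itgam row (chromosome 7, 128129547 to 128150657, plus strand). It had 10.2, 7.16 and 8.37 CPM in BPAP, against 13.4, 10.8 and 12.3 CPM in DMSO. The groups were separate but close, and Itgax was 1.42-fold lower in BPAP (log2 fold change -0.50, SE 0.17, adjusted p = 0.0420, edgeR). This call rested on few reads, at most 175 in a library, and was lost without BPAP 2 (adjusted p = 0.0984), BPAP 3 (0.0895), DMSO 1 (0.112), DMSO 2 (0.0560) or DMSO 3 (0.104) and with DESeq2 (0.0517).

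Itgal, the gene of the alpha L chain (CD11a) of LFA-1, lies 727501 bases before Itgam at 127296260 to 127335138 of the same chromosome. It was low in both groups, with 7.49, 7.07 and 7.46 CPM in BPAP, against 7.53, 6.49 and 6.62 CPM in DMSO. These values overlap, and the 95% interval of the log2 fold change ran from -0.24 to 0.43 (adjusted p = 0.659, edgeR). Itgad, the gene of the remaining beta 2 partner alpha D, had at most 3 counts in a library and was not tested.

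Itgb1, the gene of the beta 1 chain (chromosome 8, 128685654 to 128733200, plus strand), had 333, 279 and 347 CPM in BPAP, against 338, 327 and 352 CPM in DMSO. The values overlap, and the 95% interval of the log2 fold change was -0.30 to 0.13 (adjusted p = 0.536, edgeR). Itga5, whose alpha chain makes the classical fibronectin receptor with beta 1 (chromosome 15, 103344289 to 103366763, minus strand), had 115, 110 and 102 CPM in BPAP, against 113, 115 and 107 CPM in DMSO. Its interval, -0.23 to 0.16, was among the narrowest of the members (adjusted p = 0.804, edgeR). Itga6, the gene of the laminin-binding alpha 6 chain (chromosome 2, 71745616 to 71858416, plus strand), had 2.85, 2.33 and 2.21 CPM in BPAP, against 2.57, 2.43 and 2.61 CPM in DMSO. At 27 to 37 reads in a library its interval of -0.53 to 0.45 was wide (adjusted p = 0.905, edgeR), so a moderate difference was not detectable at this depth.

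Itga4, whose alpha 4 chain binds VCAM-1 and fibronectin (chromosome 2, 79255426 to 79333123, plus strand), was the most highly counted member, with 637, 891 and 596 CPM in BPAP, against 1133, 860 and 935 CPM in DMSO. BPAP 2 lay above DMSO 2, so the groups overlap, and the lower mean did not pass (log2 fold change -0.46, SE 0.16, adjusted p = 0.0577, edgeR). Without BPAP 2 it passed at -0.66 (adjusted p = 0.00370), and it also passed with DESeq2 (0.0165). Itga4 holds 13978 bases of merged exon and lies in the longest decile of the genes tested, whose median log2 fold change was -0.29. A second fit removed each library's trend of counts on exon length and GC content (here called the length-corrected fit). It takes out any group difference that goes with length or GC, whether technical or part of the response to BPAP. Which of these the trend is was not tested. In the length-corrected fit the log2 fold change of Itga4 was -0.01 (95% interval -0.55 to 0.53, adjusted p = 0.980). With the trend on the length implied by the FPKM values removed instead, it was -0.22 (adjusted p = 0.384, edgeR), so the remaining difference depends on the length used.

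Itgb5, the gene of the beta 5 chain that pairs with alpha v (chromosome 16, 33829665 to 33949153, plus strand), had 84.6, 99.5 and 88.7 CPM in BPAP, against 58.5, 60.0 and 60.4 CPM in DMSO. Every BPAP library exceeded every DMSO library, and the rise was 1.53-fold (0.61 ± 0.09 on the log2 scale, estimate and SE, adjusted p = 0.00165, edgeR). Without any single library the value lay between 0.54 and 0.66 and passed each time (adjusted p at most 0.00986). A rise of at least this size was seen in 838 of the 11711 genes.

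Itgav, the gene of the alpha v chain (chromosome 2, 83724397 to 83806916, plus strand), had 29.9, 32.0 and 64.1 CPM in BPAP, against 73.7, 68.6 and 35.6 CPM in DMSO. BPAP 3 lay near the upper DMSO libraries and DMSO 3 near the lower BPAP libraries. The difference did not pass (log2 fold change -0.50, 95% interval -1.59 to 0.60, adjusted p = 0.429, edgeR). Itgav therefore gave no measurable direction for the partner of beta 5, and without BPAP 3 its log2 fold change was -0.93 (adjusted p = 0.0947).

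Across all genes, log2 fold changes fell with the length of a gene's merged exons (Spearman correlation -0.40 over 11677 genes, which are not independent replicates). Itgb2 and Itgb5, with 3052 and 3553 bases, both lie in a length decile whose median log2 fold change was 0.13. In the length-corrected fit, Itgb2 was at -1.52 (SE 0.10, adjusted p = 0.000281, edgeR) and Itgb5 at 0.50 (SE 0.08, adjusted p = 0.00320). Itgax stayed past the threshold at -0.54 (adjusted p = 0.0459), and the summed Itgam rows at -0.35 (adjusted p = 0.0158). In that fit 23.1% of genes passed, 11.9% higher and 11.2% lower.

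**Figure D3:**
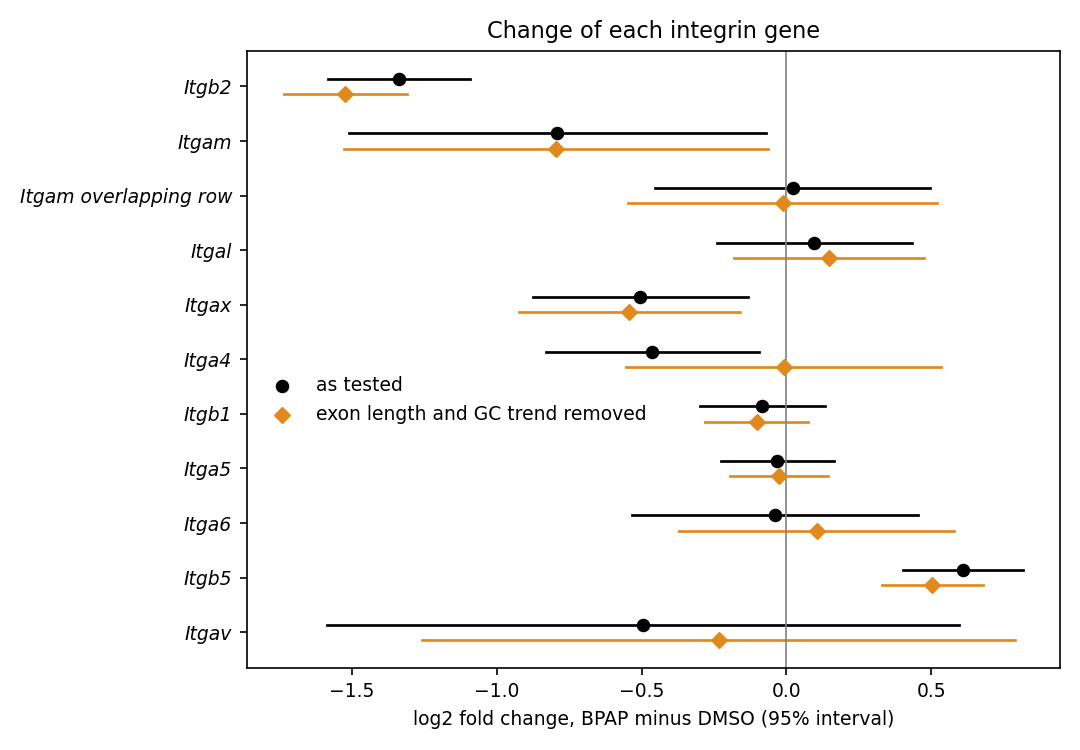
Log2 fold change (BPAP minus DMSO) of each integrin row with its 95% interval, as tested (circles) and in the length-corrected fit (diamonds). The intervals of Itgb2 and Itgb5 stay clear of 0 in both fits, whereas Itga4 is at -0.46 as tested and -0.01 after correction.

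Levels were set between genes as CPM per kilobase of merged exon. In BPAP the order was Itgb1 (78.3 ± 8.79), Itga4 (50.7 ± 11.4), Itgb2 (27.0 ± 3.70), Itgb5 (25.6 ± 2.17), Itga5 (22.1 ± 1.39), the second and first Itgam rows, Itgav (3.91 ± 1.78), Itgax, Itgal and Itga6 (SD, n = 3). Neighbours in this order did not overlap over the BPAP libraries, except Itgb2 with Itgb5 and Itga5 with the second Itgam row. In DMSO Itgb1 (83.0 ± 3.03), Itga4 (69.8 ± 10.1) and Itgb2 (68.3 ± 4.49) led, overlapping one with the next. Itgb5 (16.8 ± 0.28) came after Itga5 (22.6 ± 0.91), which it did not overlap, and after both Itgam rows, which it did. Itgb2 thus stood clear of Itgb5 in DMSO and overlapped it in BPAP. With the length implied by the FPKM values in place of exon length, Itgb2 in BPAP was at 17.7 CPM per kilobase and came sixth, below Itga5 (24.9), Itgb5 (19.7) and the second Itgam row (18.6), and in DMSO it was at 44.7.

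Of the summed level of the 3 beta genes among the members, Itgb2 gave 20.7 ± 3.35% in BPAP and 40.6 ± 2.24% in DMSO. Itgb5 gave 19.6 ± 2.06% in BPAP and 9.99 ± 0.33% in DMSO, and Itgb1 gave 59.7 ± 5.36% in BPAP and 49.4 ± 2.04% in DMSO (SD, n = 3 each). The ranges of both groups were separate for each of the 3 genes. Itgb7, no member of the set, stood at 25.3 ± 1.40 CPM per kilobase in BPAP and 21.1 ± 1.97 in DMSO. With it in the sum, a step chosen after the values were seen, Itgb2 gave 17.4 ± 2.91% in BPAP and 36.1 ± 1.99% in DMSO, Itgb5 gave 16.4 ± 1.82% in BPAP and 8.87 ± 0.23% in DMSO, and the shares of Itgb1 overlapped (45.2% to 52.9% in BPAP and 42.2% to 46.1% in DMSO). The beta 2 partner genes Itgam (both rows over their joint 6377 exon bases), Itgal and Itgax summed to 1.05 ± 0.19 times the level of Itgb2 in BPAP and 0.52 ± 0.03 times in DMSO, and Itgam made up 89.6 ± 0.55% of that alpha sum in BPAP and 89.8 ± 1.31% in DMSO. The 4 leukocyte genes together stood at 54.9 ± 2.16 CPM per kilobase in BPAP and 104 ± 5.90 in DMSO, and the 6 matrix genes at 181 ± 4.39 in BPAP and 198 ± 11 in DMSO. These sums follow from the members above and carry no test, and ratios between genes depend on the length used. With the length implied by the FPKM values, the first and second Itgam rows were at 8.43 and 18.6 in BPAP, against 17.7 for Itgb2. In DMSO the 2 rows were at 14.6 and 18.4, against 44.7 for Itgb2.

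**Figure D4:**
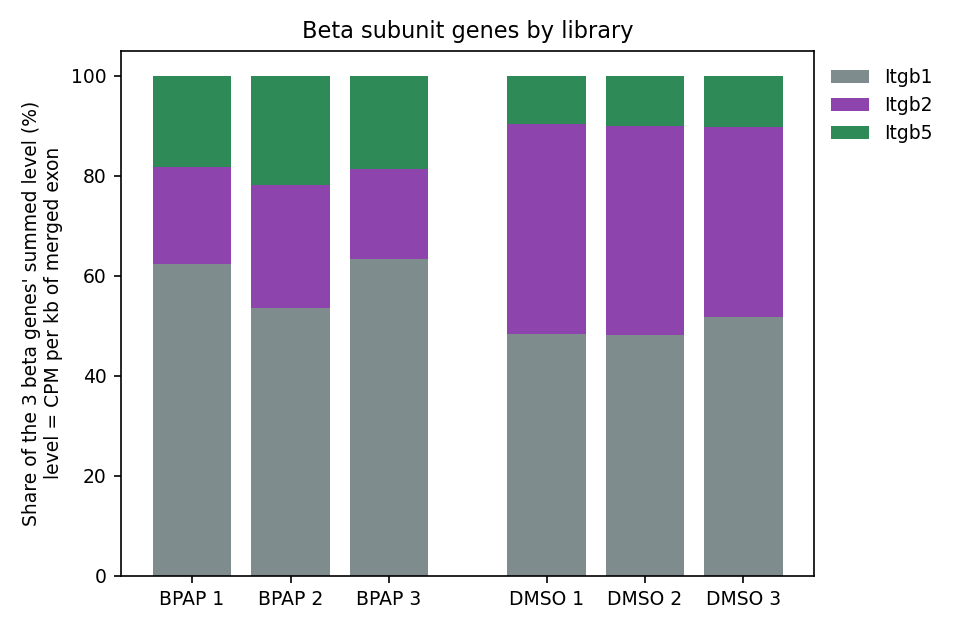
Share of each beta gene in the summed level of Itgb1, Itgb2 and Itgb5 (CPM per kilobase of merged exon), with 1 stacked bar per library. Itgb2 takes 18.2% to 24.5% of the bars in BPAP and 38.0% to 42.1% in DMSO.

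Promoter windows are shown for Itgam, Itgax and Itgb5, whose values separated the groups, from 250 bases before to 50 bases after the annotated start (RefSeq, GRCm38.p6). All 3 lie on the plus strand, at chr7:128062390-128062689, chr7:128129300-128129599 and chr16:33829415-33829714. Capitals mark GAGGAA, the core letters bound by the myeloid factor PU.1, and GGGCGG, the GC box of Sp1 and Sp3, on either strand (TTCCTC and CCGCCC on the printed strand).
Itgam: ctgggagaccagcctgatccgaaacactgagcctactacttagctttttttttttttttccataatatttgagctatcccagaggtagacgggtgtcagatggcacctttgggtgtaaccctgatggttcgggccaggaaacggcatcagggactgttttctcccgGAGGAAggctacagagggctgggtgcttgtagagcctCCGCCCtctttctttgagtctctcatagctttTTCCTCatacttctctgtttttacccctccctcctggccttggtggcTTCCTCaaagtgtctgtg
Itgax: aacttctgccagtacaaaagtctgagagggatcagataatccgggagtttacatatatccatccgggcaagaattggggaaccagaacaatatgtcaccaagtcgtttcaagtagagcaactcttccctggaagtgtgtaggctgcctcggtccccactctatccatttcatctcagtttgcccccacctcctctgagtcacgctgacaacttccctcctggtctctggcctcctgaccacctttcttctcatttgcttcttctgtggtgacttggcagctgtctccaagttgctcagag
Itgb5: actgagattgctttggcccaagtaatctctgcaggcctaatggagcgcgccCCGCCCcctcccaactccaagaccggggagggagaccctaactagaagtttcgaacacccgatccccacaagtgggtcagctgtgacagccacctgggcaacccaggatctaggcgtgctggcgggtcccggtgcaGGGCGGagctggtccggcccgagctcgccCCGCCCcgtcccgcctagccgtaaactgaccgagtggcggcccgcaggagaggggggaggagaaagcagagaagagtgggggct

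Itgam held 3 GAGGAA matches and 1 GGGCGG match, Itgb5 held 3 GGGCGG matches and no GAGGAA, and Itgax held neither. No match to the C/EBP motif TTGCNNAA was found in these windows, and no 2 matches of different motifs overlapped. Of 32851 mouse promoter windows of this length, 28.3% held GAGGAA, 35.7% held GGGCGG and 10.8% held TTGCNNAA. Windows were found for 7 of the 10 members, and none was found for Itgb2, Itgal and Itga6. Those of Itga4, Itgb1, Itga5 and Itgav, genes that did not pass, are not printed. In that order they held 0, 1, 1 and 2 GAGGAA matches and 1, 1, 2 and 1 GGGCGG matches. A match describes letters in the window and not a bound site.

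Among the genes of factors known to act at integrin promoters in myeloid cells, 17 were tested. Of these 4 rose and 2 fell (median log2 fold change 0.11), where 16.2% of all genes tested were higher and 15.5% lower. Without BPAP 1 or DMSO 2, 2 rose, and without BPAP 1, BPAP 2, DMSO 1 or DMSO 3, 1 fell. Spi1, the gene of PU.1, was at 173 CPM in BPAP and 138 CPM in DMSO (log2 fold change 0.33, adjusted p = 0.0392, edgeR). Sp3 fell to 90.7 ± 25.8 CPM in BPAP, against 178 ± 5.02 CPM in DMSO (log2 fold change -0.97, adjusted p = 0.00731, edgeR), while Sp1 did not pass (-0.32, adjusted p = 0.0551). Cebpb, a C/EBP gene induced on macrophage activation, rose 1.84-fold to 188 ± 12.3 CPM in BPAP, against 102 ± 9.84 CPM in DMSO, though its exons overlap Tmem189 on the opposite strand. Ets2, an ETS factor gene, rose 1.75-fold. Cebpa rose 1.47-fold, a call lost without BPAP 1 (adjusted p = 0.0608), DMSO 1 (0.0791) or DMSO 2 (0.0878). In the length-corrected fit Spi1 (adjusted p = 0.246) and Cebpa (0.135) did not pass. There 2 genes of the list rose and 1 fell, where 11.9% and 11.2% of all genes did.

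The rest of the integrin family was mostly undetected. Of 17 other subunit genes, 4 were tested, and the remaining 13 had at most 4 counts in any library, Itgb3 at most 1. Itga7, the gene of a laminin-binding alpha chain that pairs with beta 1, had 25.1, 26.7 and 23.7 CPM in BPAP, against 9.91, 13.7 and 13.1 CPM in DMSO. Its groups lay far apart, and the rise was 2.05-fold (1.04 ± 0.14 on the log2 scale, estimate and SE, adjusted p = 0.00105, edgeR). Itgb7, whose beta chain can also pair with alpha 4, had 70.0 ± 3.87 CPM in BPAP and 58.5 ± 5.46 CPM in DMSO and did not pass (log2 fold change 0.26, adjusted p = 0.0704), except without BPAP 2 (0.0433). Itga10, of a collagen-binding alpha chain, was lower at very low counts, at 0.55 ± 0.10 CPM in BPAP and 1.29 ± 0.19 CPM in DMSO (adjusted p = 0.0230, edgeR), but it shares 1739 exon bases with Gm42957 on the same strand. Its call was lost without BPAP 1 (adjusted p = 0.0686), BPAP 3 (0.0656), DMSO 2 (0.0849) or DMSO 3 (0.0595). Itga2b had 1.34 ± 0.52 CPM in BPAP and 1.72 ± 0.34 CPM in DMSO (adjusted p = 0.455).

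Of 19 tested genes that switch integrins on from inside the cell or bind their tails, 7 fell and 2 rose (median log2 fold change -0.21, 9 of 19 above 0). The shares over all genes tested were 15.5% lower and 16.2% higher. Fyb, the gene of the adaptor ADAP, was 2.11-fold lower at 86.3 ± 11.2 CPM in BPAP, against 183 ± 29.3 CPM in DMSO (log2 fold change -1.08, adjusted p = 0.000773, edgeR), with 231 exon bases shared with Gm7666. Rasgrp3, an exchange factor gene for Ras and Rap1, was 1.65-fold lower, while the Rap1 gene Rap1b was higher by 0.43 on the log2 scale (adjusted p = 0.00644). Krit1, whose product binds Rap1 and the beta 1 regulator ICAP-1, was 1.71-fold lower and Tln2, of talin 2, 1.51-fold lower. Tln1, the main talin gene of leukocytes, was lower at -0.35 on the log2 scale (adjusted p = 0.0112), and kindlin 3, from Fermt3, was at 0.11 and did not pass (adjusted p = 0.415). In the length-corrected fit 3 of these genes fell, where 11.2% of all genes did. Krit1 (adjusted p = 0.207), Tln2 (0.170) and Tln1 (0.150) did not pass in it. The count of higher genes was 1 when any library other than BPAP 1 was left out.

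In the list of actin linkage at adhesion sites, 25 rows were tested, of which 3 rose and 3 fell (median log2 fold change -0.06). Over all genes tested 16.2% rose and 15.5% fell. Vcl, the gene of vinculin, was 1.53-fold lower at 85.1 ± 7.87 CPM in BPAP, against 130 ± 4.09 CPM in DMSO, though 2090 of its exon bases overlap Ap3m1 on the opposite strand. Lpp, of a LIM protein of adhesion sites, was 1.6-fold lower. Vasp, whose product extends actin filaments, rose 1.56-fold to 187 ± 26.9 CPM in BPAP, against 120 ± 17.8 CPM in DMSO (adjusted p = 0.00639, edgeR). In the length-corrected fit Lpp did not pass (adjusted p = 0.301), and without BPAP 2, 5 genes fell.

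Of 28 genes of signalling downstream of integrins, 2 rose and 4 fell (median log2 fold change 0.03). The shares of all genes tested were 16.2% higher and 15.5% lower. The Rac exchange factor genes Dock2 and Dock1 were 1.43-fold and 1.57-fold lower, and Vav3, another exchange factor gene, was 1.40-fold lower. Rhoa rose 1.27-fold to 522 ± 16.5 CPM in BPAP, against 410 ± 19.3 CPM in DMSO. The focal adhesion kinase genes Ptk2 and Ptk2b and the kinase gene Syk did not pass, at -0.11, -0.07 and 0.05 on the log2 fold change scale. Without BPAP 1, BPAP 2 or DMSO 2, and in the length-corrected fit, 1 gene of this list rose. In the leukocyte actin list 20 were tested, of which 3 rose and 3 fell (median 0.10). Arpc4, of the Arp2/3 complex, rose 1.95-fold, with 283 exon bases shared with Ttll3 on the same strand, and Nckap1l and Wasf2, of the WAVE complex, were 1.38-fold and 1.28-fold lower. Fmnl1, a formin gene, was 1.24-fold lower, a call lost without DMSO 1 (adjusted p = 0.0524) or DMSO 2 (0.0672), and without DMSO 1, 1 gene of the list rose.

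Among membrane partners of integrins 17 were tested, of which 9 were higher and 1 lower (median log2 fold change 0.36). For comparison, 16.2% of all genes tested were higher and 15.5% lower. The tetraspanin genes Cd53 and Cd63 rose 1.70-fold and 1.66-fold, Cd53 to 423 ± 31.2 CPM in BPAP, against 249 ± 19.5 CPM in DMSO (adjusted p = 0.000706, edgeR). Plaur, the gene of the urokinase receptor that associates with beta 2 and beta 1 integrins, rose 2.15-fold to 14.6 ± 2.99 CPM in BPAP, against 6.8 ± 0.92 CPM in DMSO. Slc3a2, of the CD98 heavy chain that binds beta tails, rose 1.40-fold. Cd37, another tetraspanin gene, was lower at -0.32 on the log2 scale (adjusted p = 0.0235) and did not pass without DMSO 1 or DMSO 2, where 0 genes of the list fell. The list holds short genes, with a median of 2879 merged exon bases against 4296 for all genes tested. In the length-corrected fit 6 were higher and 2 lower, where 11.9% and 11.2% of all genes were.

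Among genes of integrin trafficking and turnover 21 were tested, of which 4 rose and 7 fell (median log2 fold change 0.02). Across all genes tested the shares were 16.2% higher and 15.5% lower. Acap1, which encodes an ARF6 GTPase-activating protein that recycles beta 1 integrin, had 41.6, 33.9 and 41.2 CPM in BPAP, against 91.5, 93.0 and 92.3 CPM in DMSO. It was 2.37-fold lower, with no overlap (log2 fold change -1.25, SE 0.10, adjusted p = 0.000176, edgeR). Gga3, of another recycling adaptor, was 1.69-fold lower, with 127 exon bases shared with Mrps7 on the opposite strand. Hax1, whose product binds the beta 6 tail, rose 1.70-fold. Usp9x, of a deubiquitinase, was 1.44-fold lower but at -0.05 in the length-corrected fit (adjusted p = 0.661). In that fit 5 genes of the list rose and 3 fell, where 11.9% and 11.2% of all genes did.

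Most ligand genes were below the filter. Of 15 cell surface and plasma ligands, 5 were tested and 0 passed in edgeR, DESeq2 or limma-voom (1 at an unadjusted p under 0.05 in edgeR). Icam1, the main ligand gene for the beta 2 integrins, was at 65.2 CPM in BPAP and 72.1 CPM in DMSO (log2 fold change -0.15, adjusted p = 0.282). C3, of complement, had 3.31 ± 1.03 CPM in BPAP and 5.08 ± 0.46 CPM in DMSO (adjusted p = 0.0721), and passed without BPAP 1 (0.0343). Icam4 had 0.85 ± 0.53 CPM in BPAP and 1.37 ± 0.27 CPM in DMSO (adjusted p = 0.269). Of 23 matrix ligands 8 were tested, 1 higher and 2 lower, with a median of 0.03. Over all genes tested 16.2% were higher and 15.5% lower. Spp1, which encodes the alpha v and alpha 4 ligand osteopontin, rose 1.24-fold to 2979 ± 260 CPM in BPAP, against 2406 ± 178 CPM in DMSO (adjusted p = 0.0368, edgeR), with 309 exon bases shared with Gm42793 on the same strand. The laminin genes Lamc1 and Lamb2 were 1.28-fold and 1.55-fold lower. These calls were fragile: without BPAP 1, BPAP 3, DMSO 2 or DMSO 3, 0 of the 3 genes passed, without DMSO 1 only Lamb2 passed, and in the length-corrected fit Spp1 (adjusted p = 0.552) and Lamc1 (0.0791) did not pass.

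**Figure D5:**
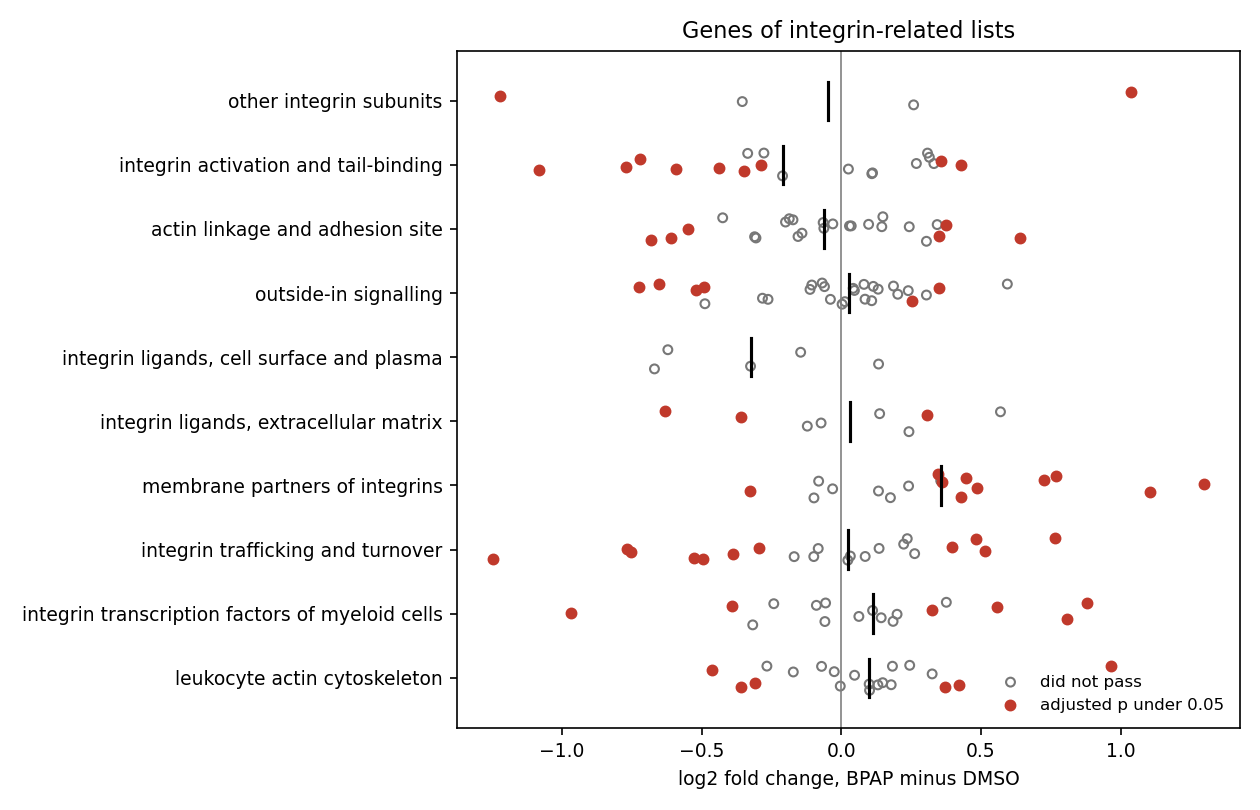
Log2 fold change (BPAP minus DMSO) of each tested gene in 10 integrin-related lists, filled where the adjusted p was under 0.05, with a vertical line at each list's median. The activation list has 9 of 19 genes above 0 and a median of -0.21, and the membrane partner list has 13 of 17 above 0 and a median of 0.36.

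The genes most like Itgb2 in their pattern over the 6 libraries, by the smallest Euclidean distance between log2 CPM values centred on each gene's mean, were RP24-503A2.6 (distance 0.21), Lrp1 (0.30) and Thbs3 (0.31). Lrp1, the gene of a large endocytic receptor, had 490, 499 and 507 CPM in BPAP, against 1236, 1283 and 1111 CPM in DMSO. RP24-503A2.6 shares 1855 exon bases with Ing4 and Thbs3 shares 318 with Mtx1, so both counts are uncertain. The genes most like Itgb1 were Col4a3bp (0.05), Plgrkt (0.05) and Acbd3 (0.06), which, like Itgb1, did not pass. These rankings rest on 6 libraries in 2 groups and describe these libraries.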

How the data were processed

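RNA of 6 RAW 264.7 libraries, 3 with BPAP and 3 with DMSO, was sequenced. Per the labels' protocols, RNA was extracted with TRIzol and the library kit was VAHTS Universal V6. Whether counting used strand is not given in the sources used here. The authors deposited 1 table of raw counts and FPKM values per gene and library. Per the submitters' processing notes, HISAT2 2.0.4, StringTie 1.3.3b and edgeR were used with GRCm38, with no role or order given. Groups come from the treatment label and replicate numbers from the titles.

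The counts as deposited were filtered with edgeR's default expression filter (11711 of 34745 genes left), scaled by TMM and tested by the robust quasi-likelihood method of edgeR 4.0.16 in R 4.3.3, with treatment as the only term. Tests were 2-sided, p-values were adjusted by Benjamini-Hochberg over every tested gene, and the threshold was 0.05. The F statistic gave standard errors and 95% intervals. A limit of 3 counts is 0.217 to 0.271 CPM, which covers counting error only. The test was checked on simulated counts of 11625 genes, with 67 changed 1.5-fold, 67 changed 2-fold and 65 changed 4-fold. It recovered 43.3% of the 1.5-fold and 92.5% of the 2-fold changes, with 7 false calls among 163. In the data 31.7% of genes passed, so the Benjamini-Hochberg cut-off on p was stricter in the simulation. The recovered shares are therefore not those of the data. Changes of 1.5-fold or less may still be missed, at a rate the simulation does not give. Exon length (each base once), overlaps and the GC content of the longest transcript came from GENCODE M21. The length-corrected fit used a lowess curve of span 0.3 on length and GC per library as an offset.

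Members and lists were chosen with earlier results of these data known. Named genes are the members, in each list the 4 smallest p-values that passed (or the 2 smallest where none passed), every other tested integrin subunit, and the 3 genes nearest in pattern to Itgb2 and to Itgb1; 1 gene this rule picks is not reported here. Fermt3, Tln1, Rap1b, Ptk2, Ptk2b, Syk, Spi1, Sp1, Cd37, Icam1 and the macrophage markers were named after their values were seen. Alternatives were scaling by upper quartile or by DESeq2 size factors, no filter, DESeq2 1.42.0, limma-voom and limma-trend on log2(FPKM + 1) or log2(FPKM + 0.1) (limma 3.58.1, mean FPKM of at least 1), the replicate block, each library left out, removal of the length trends, and the Itgam rows summed (added after the data were seen).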

Additional observations from a re-analysis of the deposited data

How the results depend on the processing

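Itgb2 was lower and Itgb5 higher past the threshold in each of 16 alternative settings, with log2 fold changes of -1.52 to -1.27 and 0.50 to 0.66. Over all genes 1901 were higher and 1814 lower in BPAP. Without 1 library the higher genes numbered 1244 (without DMSO 1) to 1654 and the lower genes 1235 to 1660, and 2149 were higher and 2087 lower with the replicate block. The 2 lower members became 4 with limma-trend on log2(FPKM + 1) and on log2(FPKM + 0.1), Itgam (adjusted p = 0.0480 in both) and Itga4 (0.0430 and 0.0443) being added, and 1 to 2 without 1 library. Deviations of same-numbered libraries of the groups correlated weakly, at 0.10, 0.05 and 0.01, and those of differently numbered libraries at -0.09 to 0.05. Whether the replicate numbers pair the libraries is not settled by these values. With the replicate block, the first Itgam row passed (adjusted p = 0.00106), as it did with DESeq2 (0.00345) and without DMSO 3 (0.0475), and 3 members were lower. Values near 0 changed sign without passing. The second Itgam row was at -0.016 and -0.017 with limma-trend (pseudocounts 1 and 0.1), at -0.012 in the length-corrected fit and between -0.15 and 0.19 without 1 library. Itga6 was at 0.10 in the length-corrected fit, at 0.13 with the FPKM length trend removed and between -0.16 and 0.032 without 1 library. Itgb1 ranged from -0.15 to 0.01 (0.0058 without BPAP 2) and Itga5 from -0.071 to 0.017 without 1 library. Depth limits Itga6, Itgal and Itgax, with 27 to 175 reads in a library. The causes of these differences were not tested.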
